A study of Mus musculus with 4 samples.

Results

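The genes followed here, 10 in number, handle lipid in heart capillaries and were measured in the cells of 4 mouse hearts: Gpihbp1, Lpl, Cd36, Fabp4, Fabp5, Mgll, Rbp7, Thrsp, Depp1 and Timp4. They are 10 of the 29245 gene columns in the tables, they were picked by name, and their high level in capillary-type wells in these same data was part of the reason for picking them. Their distribution over cell classes is therefore given as a description, with no test. The hearts came from KO mice, labelled Mst1/2-deficient, and from WT mice, both of strain C57BL/6. Mst1 and Mst2 are the Hippo pathway kinases encoded by Stk4 and Stk3. The labels name neither the alleles, the cells in which the kinases were lost, the age nor any treatment. Cells of 2 KO animals (KO1, KO2) and 2 WT animals (WT1, WT2) were parted by slow centrifugation into a cardiomyocyte fraction (CM) and a non-cardiomyocyte fraction (NCM), and single cells were read out in wells of 4 chips. Each chip held 1 genotype and 1 fraction, so genotype and chip cannot be told apart within a fraction. Nor can fraction and chip be told apart within a genotype. Wells with at least 10000 unique molecular identifiers (UMIs, tags that mark single RNA molecules) and 300 genes were kept, which left 3990 of 4275.

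The heart burns mostly fatty acids, and capillary endothelial cells are the gate through which these reach the muscle. Lipoprotein lipase, encoded by Lpl and made largely by the muscle cells, is carried to the capillary lumen by GPIHBP1, where it frees fatty acids from circulating lipoproteins. CD36 takes fatty acids up at the cell surface, the fatty acid-binding proteins FABP4 and FABP5 carry them inside the cell, and several of these genes are known targets of the nuclear receptor PPARG. Mgll encodes monoglyceride lipase, which completes the breakdown of stored fat, and Rbp7 a retinol-binding protein of capillary endothelium. Thrsp encodes a regulator of fatty acid synthesis, Depp1 a FOXO-induced protein linked to autophagy, and Timp4 an inhibitor of matrix metalloproteinases.

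In mm10, Gpihbp1 lies at chr15:75596628-75599481, Lpl at chr8:68880491-68907448, Cd36 at chr5:17781690-17888801, Fabp4 at chr3:10204088-10208576 and Fabp5 at chr3:10012548-10016607. Mgll lies at chr6:88724412-88828360, Rbp7 at chr4:149449687-149454978, Thrsp at chr7:97412938-97417730, Depp1 at chr6:116650609-116652794 and Timp4 at chr6:115241892-115252205. All 10 are protein-coding. Promoter sequence from RefSeq (GRCm38.p6) was matched for 6 of the 10 genes, in 7 windows of 250 bases before a transcription start. The windows of Depp1 (chr6:116650434-116650608, plus strand), Timp4 (chr6:115252206-115252455, minus strand) and Rbp7 (chr4:149454979-149455218, minus strand) are printed 5′ to 3′ up to the annotated gene start, because Depp1 and Rbp7 passed a genotype or fraction test described below and Timp4 shares the motif GTAAATA with Depp1. Capitals mark exact matches, on either strand, to the 7 short motifs searched: TATAAA (core promoter type), CCAAT (NF-Y type), GGGCGG (GC box), AGGTCA (nuclear receptor type), GTAAACA and GTAAATA (forkhead type) and AGGAAG (ETS type).
Depp1: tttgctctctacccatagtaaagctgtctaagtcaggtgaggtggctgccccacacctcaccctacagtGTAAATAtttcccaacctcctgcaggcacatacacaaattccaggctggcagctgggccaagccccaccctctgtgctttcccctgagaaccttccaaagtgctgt
Timp4: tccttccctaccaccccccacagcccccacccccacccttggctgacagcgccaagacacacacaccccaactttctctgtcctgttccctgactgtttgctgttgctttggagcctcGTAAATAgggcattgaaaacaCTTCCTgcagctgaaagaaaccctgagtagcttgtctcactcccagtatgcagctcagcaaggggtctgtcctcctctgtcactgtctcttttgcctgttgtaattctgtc
Rbp7: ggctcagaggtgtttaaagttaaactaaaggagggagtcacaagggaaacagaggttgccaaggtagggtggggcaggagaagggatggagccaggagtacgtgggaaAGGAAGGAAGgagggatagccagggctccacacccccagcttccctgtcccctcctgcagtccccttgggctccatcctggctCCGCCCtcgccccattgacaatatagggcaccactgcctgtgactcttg
GTAAATA, a forkhead-type motif, stood 181 bases before the RefSeq transcription start of Depp1, which lies inside the gene as given above, and 132 bases before that of Timp4. It was present in 2 of the 7 windows of these genes and in 2.73% of all 32851 promoter windows. AGGAAG, the core of ETS-type motifs, was found in 3 of the 7 windows and in 29.5% of all windows, and Rbp7 holds it in 2 overlapping copies. TATAAA was in 0 of the 7 windows (12.4% of all windows), CCAAT in 2 (33.8%) and GGGCGG in 3 (32.7%). AGGTCA was in 1 (14.0%) and GTAAACA in 1 (3.17%). A match describes the letters only, and no binding was measured.

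Cell classes were assigned by clustering the wells without the 10 genes and naming clusters from fixed markers. Kept wells per animal and fraction numbered 210 to 747, with median totals of 64289.5 to 209238 UMIs. Mitochondrially encoded genes took 58.1% and 36.5% of the UMIs of KO1 and KO2 NCM wells, against 7.45% and 11.2% in WT1 and WT2 NCM wells, so levels are given as CPM, UMIs per 1000000 UMIs outside mt-, Hba- and Hbb- genes. The targeted genes did not separate the genotypes: Stk4 stood at 45.8 and 37.5 CPM in KO NCM wells and 53.1 and 47.3 in WT NCM wells, and Stk3 at 29.0 and 26.3 in KO and 23.5 and 38.6 in WT. Whether the counted parts of these genes lie in the deleted exons is not known, so these values check nothing. Well barcodes recur between chips (60 to 400 shared per pair) because they encode well positions.

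**Figure D1:**
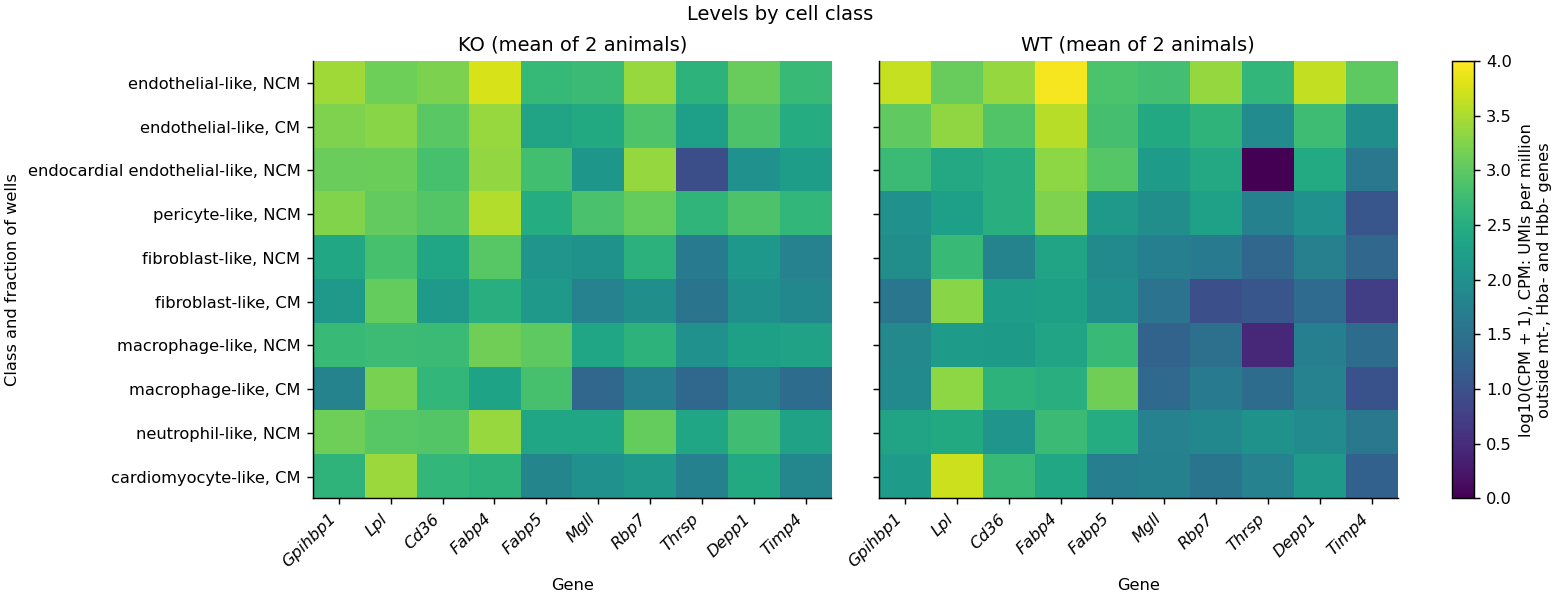
Mean level of each gene by cell class and fraction, as log10 of CPM plus 1, in KO (left, mean of 2 animals) and WT (right, mean of 2 animals). The top row, endothelial-like NCM wells, is brightest for most genes in both genotypes, while Lpl is brightest in cardiomyocyte-like CM wells and the KO rows for macrophage-like, neutrophil-like and pericyte-like NCM wells are lighter than the WT rows for most genes.

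Endothelial-like NCM wells had the highest mean over the 4 animals for 8 of the 10 genes. Fabp4 averaged 7239 ± 1809 CPM there (SD, n = 4 animals, 373 wells), Gpihbp1 3591 ± 1343 and Cd36 1973 ± 545. The class was named from Cdh5, Egfl7, Esam, Flt1, Kdr, Ly6c1 and Ptprb, which encode junction, receptor, surface and secreted proteins of vascular endothelium. All 8 adipocyte markers searched (Adipoq, Plin1, Cidec, Car3, Retn, Lep, Cfd and Pck1) were at 0 in endothelial-like wells of every animal and both fractions, although Fabp4, Cd36, Lpl, Thrsp and Mgll are also genes of fat cells. A kept endothelial-like NCM well held a median of 8 and 9 of the 10 genes in KO1 and KO2, against 8 and 8 in WT1 and WT2.

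The exceptions were Fabp5 and Lpl. Fabp5 was highest in macrophage-like CM wells, at 1016 ± 516 CPM (SD, n = 4 animals), and macrophage-like NCM wells followed at 761.9 ± 319.9, within that spread. Lpl was highest in cardiomyocyte-like CM wells, at 3752 ± 1776, with endothelial-like CM wells next at 2087 ± 987, again within the spread over animals. Cardiomyocyte-like wells held 1363 and 3727 CPM of Lpl in KO1 and KO2 and 4308 and 5609 in WT1 and WT2, both KO animals below both WT animals. Tested between KO and WT on sums per animal (edgeR's quasi-likelihood test, where a gene passed, or was called, at a Benjamini-Hochberg adjusted p under 0.05 over all genes), none of the 10 passed in that class (0.0% of 12366 genes called by edgeR, and 0 of the 10 and 0.536% of all genes by DESeq2), and Rbp7 alone was higher at an unadjusted p under 0.05, against 3.49% of all genes. In cardiomyocyte-like wells 5 of the 10 genes had both KO animals above both WT animals, where 22.2% of all genes tested did, and Lpl was the 1 with both below, where 14.6% did.

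Levels were correlated across 40 sums, each of 1 animal, class and fraction with at least 20 wells, unnamed clusters included. The same class and fraction thus recurs over animals. Fabp4 and Gpihbp1 had a Pearson correlation of 0.910, and Fabp4 correlated at 0.890 with Rbp7, 0.891 with Mgll and 0.865 with Depp1. Fabp5 and Lpl stood apart, at 0.300 and 0.0994 with Fabp4. These sums share chips, depth and well composition, so the correlations are descriptions. Of 8520 genes ranked, those most like the mean of the 10 were Adgrg1 (0.912), Esam (0.896), Cd300lg (0.885), Robo4 (0.877) and Cav1 (0.871). Fabp5 tracked most closely with Gm6166 (0.935), and Fabp5 counts are given as uncertain, since whether reads were split between these genes was not tested.

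**Figure D2:**
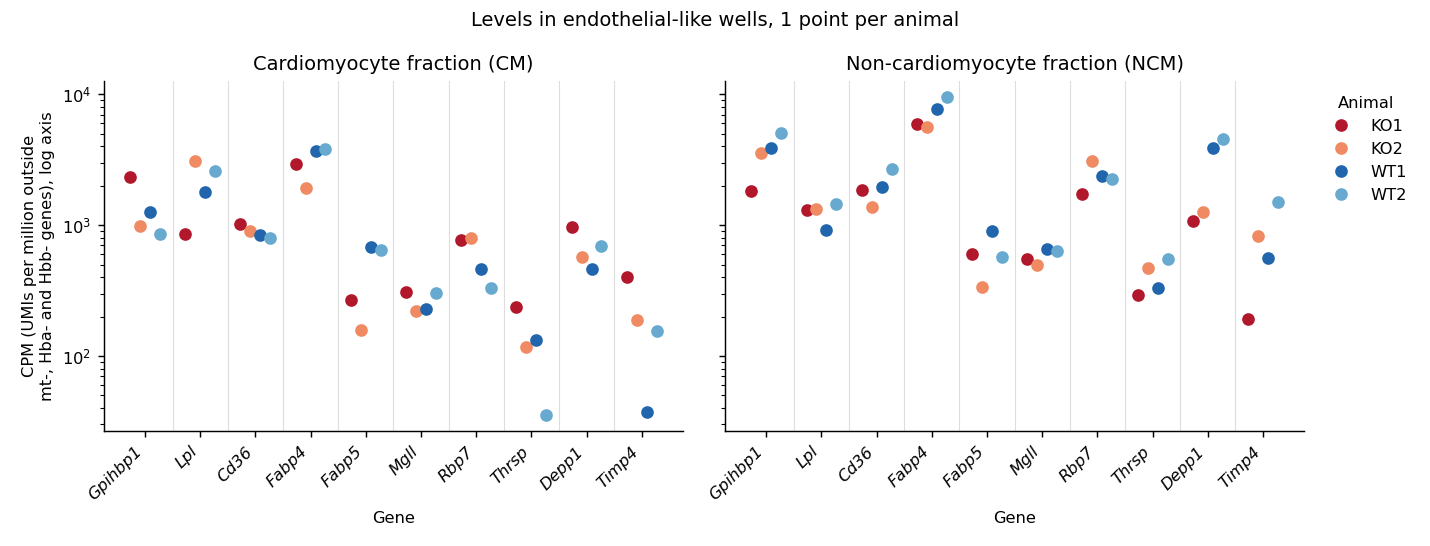
Level of each gene in endothelial-like wells of the CM fraction (left) and NCM fraction (right), on a log axis of CPM, with 1 point for each of KO1, KO2, WT1 and WT2. In NCM wells the KO points of Depp1, at 1079 and 1269, lie far below the WT points, at 3925 and 4587, while those of Rbp7, Lpl and Thrsp overlap.

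The KO and WT comparison in endothelial-like NCM wells asks whether these genes stand at another level in capillary cells of Mst1/2-deficient hearts. It rests on 72 and 89 wells of KO1 and KO2 and 66 and 146 wells of WT1 and WT2, summed per animal and tested with edgeR over 11642 genes. Depp1 was lower in KO: its level was 1079 and 1269 CPM in KO1 and KO2, against 3925 and 4587 in WT1 and WT2, with no overlap. It fell by 2.02 on the log2 scale (SE 0.25, edgeR adjusted p = 0.04), the only gene of the 10 to pass and the only gene called lower among all those tested. Called genes made up 0.112% of those tested, and 0.00859% were called lower. The other 12 were called higher and comprised 10 mitochondrially encoded genes, Gm13340 and Gm13341. Mitochondrially encoded genes took 51.5% and 39.9% of UMIs in these KO wells and 7.93% and 11.9% in the WT wells, and their part in the Depp1 difference was not tested. Without mt-, Hba- and Hbb- genes in the fit, Depp1 stood at -2.03 with an adjusted p of 0.0326. The call was lost without WT1 (adjusted p = 0.546), without KO1 (0.133), without WT2 (0.127), with library totals in place of TMM scaling (0.0562) and when the 10 genes took part in the clustering (0.0791), with estimates between -1.90 and -2.69 throughout.

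The lipase partners did not pass the test. Gpihbp1, the luminal anchor of the lipase, had 1837 and 3563 CPM in KO1 and KO2, against 3869 and 5094 in WT1 and WT2. Both KO animals were below both WT animals, but KO2 and WT1 were close (log2 -0.88, SE 0.35, edgeR adjusted p = 0.63). Lpl had 1310.3 and 1337 in KO and 916 and 1447 in WT, with overlapping groups and a log2 difference of 0.01 (SE 0.29).

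The uptake and carrier genes were lower in most KO animals without passing. Cd36 had 1869.7 and 1371 CPM in KO and 1958 and 2692 in WT. Fabp4 had 5990.4 and 5632 in KO and 7772 and 9562 in WT. Neither overlapped between the genotypes, with log2 differences of -0.69 and -0.74 (SE 0.27 and 0.22; edgeR adjusted p = 0.63 and 0.605). Fabp5 had 605 and 335 in KO and 910.4 and 569 in WT, where KO1 lay above WT2. Rbp7 had 1735 and 3070.3 in KO and 2363 and 2247 in WT, with the 2 WT animals inside the KO range.

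Of the remaining genes, Mgll had 551 and 500.2 CPM in KO and 653 and 637 in WT, a small gap with no overlap. Thrsp had 295 and 473 in KO and 329 and 549 in WT. Timp4 had 193 and 832 in KO and 558 and 1496 in WT, the widest relative spread among the 10, with KO2 above WT1. In all, 9 of the 10 estimates were negative, with a median of -0.71 against -0.03 for all genes, and 5 of the 10 had both KO animals below both WT animals, where 16.9% of all genes did. At an unadjusted p under 0.05, 4 of the 10 were lower, against 4.16% of all genes, and DESeq2 called 1 of the 10 lower, Depp1, against 0.775% of all genes with a p-value.

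Summed, the 10 genes took 1.55% and 1.84% of UMIs outside mt-, Hba- and Hbb- genes in KO1 and KO2 endothelial-like NCM wells, against 2.33% and 2.89% in WT1 and WT2. The 15 endothelial naming markers, all detected in every animal, were as a sum lower in both KO animals too. They took 0.751% and 0.628% in KO and 0.944% and 1.19% in WT on the same scale. Single markers differed in direction. Ly6c1, the highest of them, had 1980 and 2497 CPM in KO and 3679 and 5943 in WT. Erg had 250 and 170 in KO and 87.9 and 108 in WT, and Cdh5 and Kdr overlapped between the genotypes. Markers of cardiomyocytes (12 genes; 0.168% and 0.543% in KO, 0.156% and 0.277% in WT), fibroblasts (10 genes; 0.383% and 0.571% in KO, 0.396% and 0.262% in WT) and macrophages (10 genes; 0.225% and 0.243% in KO, 0.242% and 0.209% in WT) overlapped between the genotypes. Pericyte markers (8 genes) took 0.0671% and 0.103% in KO and 0.0352% and 0.0657% in WT. The part of these markers in the differences of the 10 genes was not tested. Relative to Fabp4 UMIs in the same wells, Depp1 UMIs amounted to 18.01% and 22.5% in KO and 50.5% and 48.0% in WT, so the gap in Depp1 was present within the set as well. Cd36 was 31.2% and 24.3% of Fabp4 in KO and 25.2% and 28.2% in WT.

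No gene of the other lists passed in endothelial-like NCM wells. Of 17 other capillary genes, among them Car4, Aqp1, Kdr and Cldn5, 15 had negative and 2 positive estimates, with a median of -0.54, and 0 passed in either direction by edgeR (6 lower at an unadjusted p under 0.05). Of 15 genes of fatty acid transport and activation, 14 were tested, 10 of them negative, and 0 passed (0 at an unadjusted p under 0.05). Of 20 transcription factors and ligands linked to endothelial fatty acid uptake, such as Pparg, Meox2 and Vegfb, 18 were tested and 13 were negative, with 0 passing and 1 higher at an unadjusted p under 0.05. Of 17 lipase partners and lipoprotein receptors, 14 were tested, 11 with positive estimates and a median of 0.89, and 0 passed (1 higher at an unadjusted p under 0.05). Of 15 genes of lipid droplets and fat synthesis, 11 were tested, 9 with positive estimates and a median of 0.95, and 0 passed (2 higher at an unadjusted p under 0.05). Among 18 artery, vein and endocardial genes, 17 were tested, 7 with positive and 10 with negative estimates and a median of -0.14. There too 0 passed (1 higher at an unadjusted p under 0.05).

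In endothelial-like CM wells (41 and 51 wells of KO1 and KO2, 29 and 19 of WT1 and WT2), 0 of the 10 genes passed, as did 0.0% of the 9390 genes tested by edgeR. Fabp5 alone was lower at an unadjusted p under 0.05, against 1.64% of all genes, and DESeq2 called 0 of the 10 and 0.275% of all genes. Fabp5 had 269 and 158 CPM in KO1 and KO2, against 679 and 649 in WT1 and WT2 (log2 -1.78, SE 0.47). Fabp4 had 2913 and 1915 in KO and 3678 and 3840.2 in WT. Depp1 had 975 and 575 in KO and 462 and 697 in WT, with overlapping groups, unlike in the NCM fraction. Cd36 had 1022 and 898 in KO and 846 and 795 in WT, both KO animals above both WT animals by a narrow margin. Of the 10 estimates, 6 were positive and 4 negative.

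In macrophage-like and fibroblast-like NCM wells the estimates had the other sign. In macrophage-like NCM wells (36 and 47 wells of KO1 and KO2, 103 and 96 of WT1 and WT2), all 10 genes had both KO animals above both WT animals, where 18.3% of all genes did. Fabp4 had 1974 and 707 CPM in KO1 and KO2, against 150.2 and 275 in WT1 and WT2. Gpihbp1 had 674 and 358 in KO and 94.9 and 56.6 in WT. Rbp7 had 564 and 196 in KO and 17.3 and 41.3 in WT, so the KO values of these carriers and of the lipase anchor were well apart from the WT values. Depp1 had 232 and 137 in KO and 44.1 and 59.2 in WT. Mgll had 315 and 147 in KO and 10.3 and 25.8 in WT. Fabp5, the gene whose own highest class is macrophage-like, showed the smallest gap, with 1072 and 963 in KO and 648 and 365 in WT. Thrsp rested on few molecules in WT: 315 and 590.0 UMIs in KO1 and KO2, against 16 and 70.0 UMIs in WT1 and WT2.

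None of these 10 differences passed in edgeR over 12122 genes (0.0% called), although all 10 were higher at an unadjusted p under 0.05, against 4.4% of all genes, and DESeq2 called 6 of the 10 higher, against 1.6% of all genes. The estimates ran from 0.92 for Fabp5 to 5.69 for Thrsp on the log2 scale, with a median of 2.55 against -0.03 for all genes. Of the 17 other capillary genes, all 17 estimates were positive, 9 at an unadjusted p under 0.05, and 0 passed. The list of 18 artery, vein and endocardial genes went mostly the other way. Of its 17 genes tested, 6 estimates were positive and 11 negative, with a median of -0.24. There 0 passed and 1 was higher at an unadjusted p under 0.05. The 15 endothelial naming markers stood the same way, with 15 of 15 detected in every animal and a summed 0.222% and 0.129% of UMIs outside mt-, Hba- and Hbb- genes in KO macrophage-like NCM wells, against 0.0228% and 0.0302% in WT. So did the 12 cardiomyocyte markers, at 0.259% and 0.437% in KO and 0.0707% and 0.150% in WT. The 10 fibroblast markers took 0.193% and 0.354% in KO and 0.133% and 0.132% in WT, and the 8 pericyte markers 0.0399% and 0.0206% in KO and 0.00367% and 0.0154% in WT, again with both KO animals higher. The 10 macrophage markers that named the class were lower in both KO animals, at 1.39% and 1.35% in KO and 2.55% and 2.83% in WT. Their part in these differences was not tested.

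In fibroblast-like NCM wells (101 and 136 wells of KO1 and KO2, 156 and 133 of WT1 and WT2) 8 of the 10 genes had both KO animals above both WT animals, where 24.4% of all genes did. Fabp4 had 1052 and 785 CPM in KO and 149 and 279 in WT. Rbp7 had 351 and 392 in KO and 23.0 and 66.8 in WT. Lpl, which fibroblast-like wells held in both genotypes, had 784 and 563 in KO and 365 and 612 in WT, with overlap. All 10 estimates were positive, 6 at an unadjusted p under 0.05 against 5.45% of all genes, and 0 passed in edgeR (0.0% of 14287 genes called), while DESeq2 called Cd36, Fabp4 and Rbp7 higher, against 1.62% of all genes. Endothelial markers took 0.186% and 0.108% in these KO wells and 0.0937% and 0.0670% in the WT wells, and pericyte markers 0.0434% and 0.0528% in KO and 0.0142% and 0.0236% in WT, both sets higher in both KO animals. Markers of cardiomyocytes (0.131% and 0.350% in KO, 0.0758% and 0.154% in WT) and macrophages (0.102% and 0.184% in KO, 0.110% and 0.0801% in WT) overlapped, and the fibroblast markers were slightly lower in KO, at 3.50% and 3.02% in KO and 3.52% and 3.57% in WT. Their part was not tested.

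Neutrophil-like NCM wells held the 10 genes at a summed 0.930% and 0.675% of UMIs outside mt-, Hba- and Hbb- genes in KO1 and KO2, against 0.205% and 0.155% in WT1 and WT2. There 9 of the 10 had both KO animals above both WT animals, where 24.3% of the 8648 genes past the same low-count filter did, and Fabp5 had both below, where 15.4% did, at 232 and 224 CPM in KO and 243 and 354 in WT. Endothelial markers took 0.426% and 0.308% in KO neutrophil-like wells and 0.0991% and 0.0510% in WT ones. Pericyte markers were also higher in both KO animals, at 0.0432% and 0.0834% in KO and 0.0165% and 0.0365% in WT. The neutrophil markers that named the class were lower in both, at 0.695% and 0.846% in KO and 2.20% and 1.99% in WT. Cardiomyocyte, fibroblast and macrophage markers overlapped between the genotypes. The part of these markers was not tested. Pericyte-like NCM wells, only 10 to 15 per animal, held Fabp4 at 5493 and 1315 in KO and 787 and 2611 in WT. In macrophage-like CM wells Fabp4 did not show the gap seen in the NCM fraction. It had 239 and 171 in KO and 376 and 258 in WT, both KO animals below both WT animals. Fabp4 and Fabp5 were the 2 of the 10 genes with both KO animals below there, and 1 had both above. In fibroblast-like CM wells 4 of the 10 had both KO animals above both WT animals and 0 had both below. No shares over all genes stand beside these counts, so nothing is read from them. NCM wells left out for falling under the UMI or gene limits also carried these genes, which took 0.727% of such UMIs on the KO chip and 0.817% on the WT chip.

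**Figure D3:**
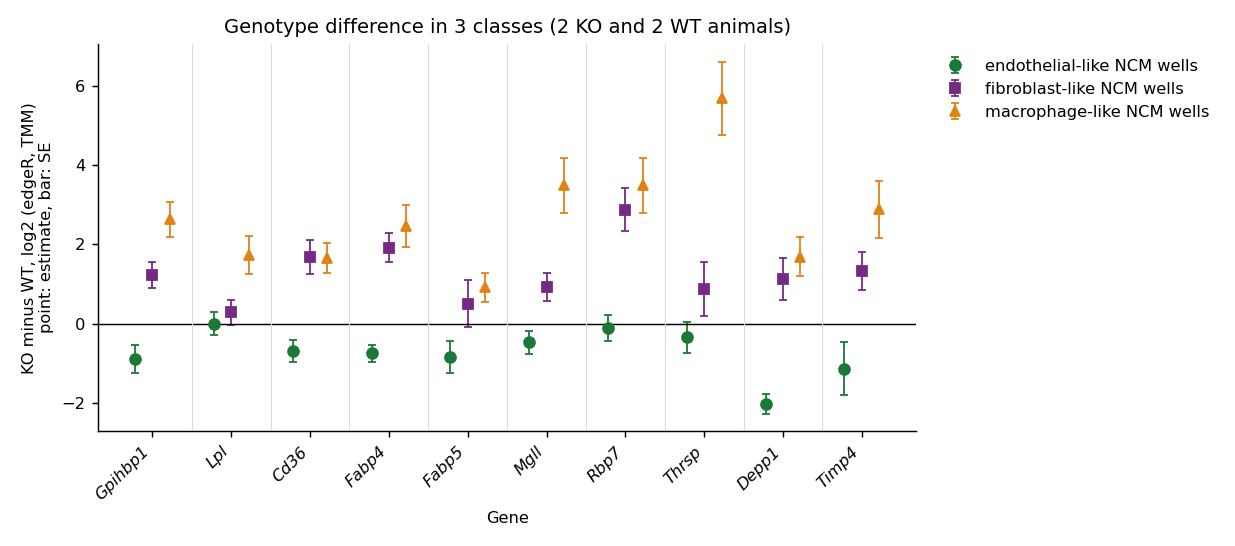
Difference KO minus WT (log2, edgeR with TMM scaling) of each gene in endothelial-like, fibroblast-like and macrophage-like NCM wells, with points for estimates and bars for 1 SE. Endothelial-like estimates lie at or below 0.01, with Depp1 lowest at -2.02, and macrophage-like estimates lie above 0, with Thrsp highest at 5.69.

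The opposite signs were tested directly with a term for the genotype difference between classes, keeping the animal as a block. This comparison was added after the class values had been seen. For endothelial-like minus macrophage-like NCM wells, 3 of the 10 genes passed: Depp1 (log2 -3.71, SE 0.38, edgeR adjusted p = 0.0217), Thrsp (-6.23, SE 0.76, adjusted p = 0.034) and Fabp4 (-3.16, SE 0.40, adjusted p = 0.0406). Only 6 of 13479 genes were called (0.0445%), all lower, and the other 3 were the endothelial genes Cavin2, Ly6a and Ly6c1. All 10 estimates were negative, with a median of -3.64 against 0.18 for all genes, and all 10 were lower at an unadjusted p under 0.05, against 2.77% of all genes. The Fabp4 call was lost with DESeq2 size factors (adjusted p = 0.0507), and without any 1 animal all 3 calls were kept.

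For endothelial-like minus fibroblast-like NCM wells, Fabp4 passed (log2 -2.74, SE 0.25, edgeR adjusted p = 0.0428), as did 0.0208% of 14416 genes, the other 2 being Emcn and Esam. All 10 estimates were again negative, with a median of -2.30 against 0.00 for all genes, and 9 of the 10 were lower at an unadjusted p under 0.05, against 3.08% of all genes. Lpl was the exception (-0.31, SE 0.28). The Fabp4 call was lost without WT1 (adjusted p = 0.140), with DESeq2 size factors (0.0580) and without the wells that Scrublet called as doublets (0.0575).

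**Figure D4:**
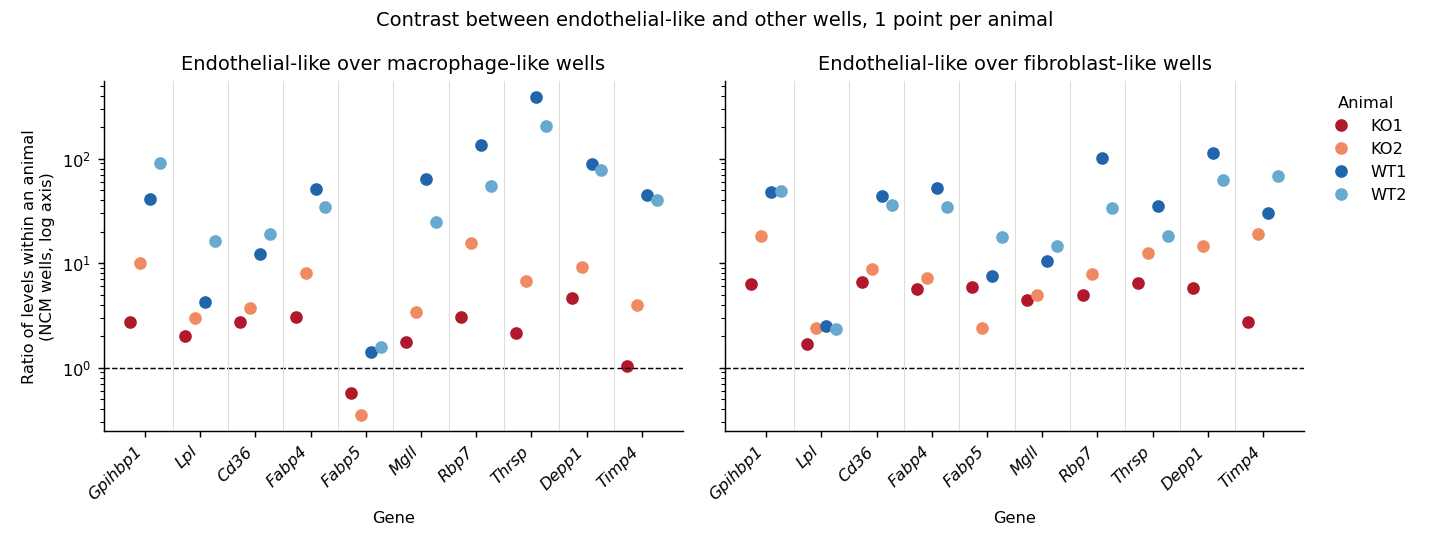
Ratio of each gene's level in endothelial-like over macrophage-like (left) or fibroblast-like (right) NCM wells of the same animal, on a log axis, with a dashed line at 1 and 1 point per animal. In the left panel both KO animals lie below both WT animals for all 10 genes, and for Fabp5 the KO ratios lie below 1.

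Within an animal the contrast between classes shows the same values as ratios. Fabp4 was 3.04 and 7.97 times higher in endothelial-like than in macrophage-like NCM wells of KO1 and KO2, against 51.7 and 34.8 times in WT1 and WT2. For Gpihbp1 the ratios were 2.72 and 9.95 in KO and 40.8 and 90.0 in WT, and for Depp1 4.65 and 9.24 in KO and 89.1 and 77.5 in WT. The endothelial naming markers as a sum gave ratios of 3.39 and 4.89 in KO and 41.4 and 39.5 in WT. Over all genes of that fit, 13.9% had lower ratios in both KO animals, as all 10 genes did. Against fibroblast-like wells 9 of the 10 genes had lower ratios in both KO animals, where 16.7% of all genes did, with Lpl overlapping, at 1.67 and 2.37 in KO and 2.51 and 2.36 in WT.

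The proportions among the genes also differed between classes and genotypes. In macrophage-like NCM wells, Thrsp UMIs amounted to 7% and 10% of Fabp4 UMIs in KO, against 0.561% and 0.980% in WT, while in endothelial-like NCM wells they amounted to 4.92% and 8.40% in KO and 4.23% and 5.74% in WT. Rbp7 amounted to 28.6% and 27.7% of Fabp4 in KO macrophage-like wells and 11.50% and 15.03% in WT ones, against 29.0% and 54.5% in KO endothelial-like wells and 30.4% and 23.5% in WT ones. In WT both proportions were lower in macrophage-like than in endothelial-like wells of each animal. In KO the Thrsp proportion was higher in macrophage-like wells of each animal, and the Rbp7 proportion was close in KO1 and lower in KO2. Fabp5 amounted to 54.3% and 136% of Fabp4 in KO macrophage-like wells and 432% and 133% in WT ones, where endothelial-like wells held 10.1% and 5.94% in KO and 11.7% and 5.95% in WT.

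In all NCM wells pooled, most of the estimates had the other sign than in endothelial-like wells. Over 17031 genes edgeR called 0.0% and 0 of the 10, with 3 of the 10 (Lpl, Mgll and Rbp7) higher at an unadjusted p under 0.05, against 5.98% of all genes, and DESeq2 called 1 higher, Rbp7, against 1.48% of all genes. In the pooled wells 9 of the 10 estimates were positive, with a median of 0.70, where 9 of 10 were negative in endothelial-like wells. Depp1 was negative in both and Lpl positive in both. Fabp4, for example, stood at 3343 and 1569 CPM in all KO NCM wells and 800.3 and 1955 in all WT ones (log2 0.64, SE 0.49). With library totals in place of TMM scaling, which shifts the median of all genes by -0.84, Fabp4, Fabp5, Gpihbp1, Cd36 and Timp4 turned negative in the pooled wells. The make-up of the pooled wells also differed. An unnamed cluster, high in Hba-, Hbb- and mt- genes, held 355 of 715 KO1 and 132 of 747 KO2 NCM wells. It held 6 of 692 WT1 and 49 of 703 WT2 NCM wells. There the 10 genes took 1.5003% and 0.818% of UMIs outside mt-, Hba- and Hbb- genes in KO1 and KO2. They took 1.201% in WT2, and WT1 had too few such wells for a share. The part of this cluster in the pooled estimates was not tested.

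In sums over wells, fewer molecules per well and fewer wells holding a gene cannot be told apart. The share of wells with at least 1 UMI was therefore compared after thinning wells to 10000 UMIs outside mt-, Hba- and Hbb- genes. Wells with fewer such UMIs were left out. This kept 67 and 84 endothelial-like NCM wells of KO1 and KO2 and 62 and 138 of WT1 and WT2. Rbp7 was found in 73.3 and 72.9% of thinned endothelial-like NCM wells of KO1 and KO2, against 59.4 and 58.4% in WT1 and WT2 (87.5 and 85.4% in KO and 71.2 and 73.3% in WT before thinning). Lpl was found in 85.1 and 87.5% in KO and 73.8 and 80.2% in WT. Depp1 was found in 73.0 and 81.2% in KO and 83.4 and 80.0% in WT, overlapping although its summed level did not. Of the 10 shares, 6 (Fabp4, Fabp5, Cd36, Lpl, Rbp7 and Mgll) were higher in both KO animals than in both WT animals, where 33.7% of all genes were. Mgll was among them by a narrow margin, at 65.96% in KO2 against 65.94% in WT2. It overlapped with thinning to 5000 UMIs and when the 10 genes took part in the clustering. With at least 2 UMIs asked for and no thinning, Mgll and Fabp5 overlapped, and Gpihbp1 was lower in both KO animals. The smallest p that an exact 2-sided permutation test over 2 and 2 animals can give is 0.333, so none could pass. Summed levels of Fabp4, Cd36 and Mgll were lower in the same KO wells. Shares and levels thus ran in opposite directions for these genes, and no order is read from the shares. The thinned shares of Fabp4 (100% and 99.8% in KO, 96.0% and 98.4% in WT) lay near the upper limit. So did most of those of Cd36 (96.7% and 94.7% in KO, 88.9% and 93.6% in WT).

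The depths behind these shares were medians of 33548 and 43816 UMIs outside mt-, Hba- and Hbb- genes per well in KO and 38375.5 and 55555.5 in WT. In thinned macrophage-like NCM wells Fabp4 was found in 96.1 and 88.3% of KO wells and 51.6 and 58.4% of WT wells. Rbp7 was found there in 56.8 and 39.3% in KO and 7.87 and 14.5% in WT, and Thrsp in 17.2 and 15.1% in KO and 2.53 and 2.76% in WT. The shares in macrophage-like wells were thus higher in KO for these genes, and the gap for Rbp7 in endothelial-like wells was smaller than that in macrophage-like wells. Whether these counts came from the macrophages themselves or from other cells was not tested.

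**Figure D5:**
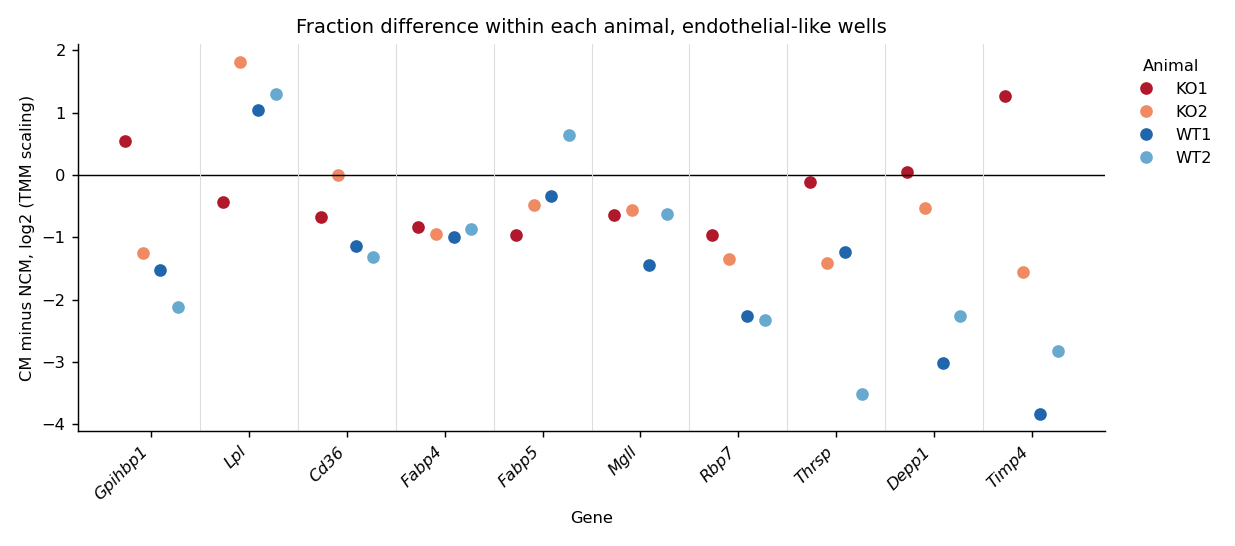
Difference CM minus NCM (log2, TMM scaling) of each gene in endothelial-like wells within each animal. Rbp7 and Fabp4 lie below 0 in all 4 animals, Lpl lies above 0 in 3 of 4, and Depp1 and Timp4 lie lower in the 2 WT animals than in the 2 KO animals.

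The names of the 4 animals recur in both fractions, which allows a comparison within animals. Each fraction of a genotype had its own chip, so a fraction difference cannot be told apart from a chip difference. Endothelial-like wells of the NCM fraction came mostly from 1 cluster (68, 85, 60 and 135 wells of KO1, KO2, WT1 and WT2) and those of the CM fraction from another (37, 49, 27 and 17). With the animal as a block, edgeR called 3.05% of 12703 genes higher and 0.992% lower in CM than in NCM wells. Rbp7 was the only 1 of the 10 to pass: it fell by 1.72 on the log2 scale in CM wells (SE 0.33, adjusted p = 0.0105). It had 776 and 793 CPM in CM wells of KO1 and KO2 and 1735 and 3070.3 in their NCM wells, and 464 and 329 in CM wells of WT1 and WT2 and 2363 and 2247 in their NCM wells. By animal the difference was -0.96 and -1.35 in KO1 and KO2 and -2.27 and -2.32 in WT1 and WT2. The call was lost without WT1 (adjusted p = 0.0570) and without WT2 (0.0749). As a sum, the 15 endothelial naming markers were also lower in CM than in NCM wells of every animal. They took 0.533% and 0.320% in CM wells of KO1 and KO2 against 0.751% and 0.628% in their NCM wells. In WT1 and WT2 they took 0.405% and 0.292% in CM wells against 0.944% and 1.19% in NCM wells. Their part in the difference of Rbp7 was not tested.

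Fabp4 was lower in the CM wells of all 4 animals by nearly the same amount, -0.84 and -0.95 in KO1 and KO2 and -1.0002 and -0.86 in WT1 and WT2, but did not pass (log2 -0.91, SE 0.26, edgeR adjusted p = 0.0844). Lpl had the only positive estimate (0.95, SE 0.37, adjusted p = 0.217), with -0.43 and 1.82 in KO1 and KO2 and 1.04 and 1.30 in WT1 and WT2. Cardiomyocyte markers, 12 of 12 detected, took 2.07% and 6.08% of UMIs outside mt-, Hba- and Hbb- genes in KO endothelial-like CM wells and 3.63% and 6.04% in WT ones, against 0.168% and 0.543% in KO and 0.156% and 0.277% in WT endothelial-like NCM wells. Lpl is also a gene of cardiomyocytes, and the part of these markers in its difference was not tested. Of the 10, 8 were lower at an unadjusted p under 0.05 against 8.17% of all genes, and DESeq2 called 4 of the 10 lower, against 3.12% of all genes. Of the 17 other capillary genes, 3 were called lower and 0 higher, with 17 of 17 negative.

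Whether the fraction difference depended on genotype was tested by an interaction term, for which edgeR called 0 of the 10 and 0.0% of the 12703 genes tested. Depp1 gave 2.40 (SE 0.54, edgeR adjusted p = 0.322) and Timp4 3.17 (SE 0.85, adjusted p = 0.486). Both were among the 4 of the 10 that were higher at an unadjusted p under 0.05, against 3.2% of all genes, and both were called higher by DESeq2, which called 0.4% of all genes higher. By animal, Depp1 in CM minus NCM wells stood at 0.05 and -0.53 in KO1 and KO2 and -3.01 and -2.27 in WT1 and WT2, with no overlap. Timp4 stood at 1.27 and -1.55 in KO1 and KO2 and -3.83 and -2.83 in WT1 and WT2.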

How the data were processed

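The authors deposited tables of UMI counts per gene and well, 1 per chip, and a report that names each well's animal. The build mm10 and the tools Subread 1.4.6-p1, featureCounts and STAR 2.5.2b are listed, without roles, per the submitters' processing notes. From the counts, wells with at least 10000 UMIs and 300 genes were kept and clustered without the 10 genes (scanpy 1.11.5, 2000 variable genes, 30 components, 15 neighbours, Leiden resolution 1). A cluster was named from at least 3 markers among its first 30 genes; the 33 wells that Scrublet called doublets were kept, and left out in an alternative. Counts were summed per animal, fraction and class (at least 20 wells; 15 where CM endothelial-like wells enter, since WT2 had 19, a minimum chosen after seeing the data) and tested with edgeR 4.0.16 (TMM, filterByExpr, quasi-likelihood, Benjamini-Hochberg 0.05 over all genes). DESeq2 1.42.0 was an alternative. Nothing in the labels says how independently the 2 animals of a genotype were handled, and p-values measure the spread between these animals only. All 10 genes were named, with lists of related genes beside them; the genes, lists and tests were chosen with earlier results of these data known. Nothing in the labels pairs same-numbered KO and WT animals. Tests were run on simulated data first.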

Additional observations from a re-analysis of the deposited data

Results flagged for a closer look

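In 4 results the KO minus WT difference itself differed between cell classes of the NCM fraction by a test of that difference (edgeR, animal as a block). These comparisons were added after the class values had been seen, and the genes were picked partly for their high level in capillary-type wells. For endothelial-like minus macrophage-like wells the difference was -3.71 for Depp1, -6.23 for Thrsp and -3.16 for Fabp4 on the log2 scale. For endothelial-like minus fibroblast-like wells it was -2.74 for Fabp4. Both Fabp4 calls were lost with DESeq2 size factors. In each case both KO animals had a smaller ratio between the classes than both WT animals. The endothelial naming markers as a sum had smaller KO ratios too. Over macrophage-like wells these were 3.39 and 4.89 in KO and 41.4 and 39.5 in WT. Over fibroblast-like wells they were 4.05 and 5.81 in KO and 10.1 and 17.8 in WT. The sums of KO and WT came from different chips, and genotype and chip cannot be told apart.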

How the results depend on the processing

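With 2 animals a genotype, counts of called genes depend on the tool. In endothelial-like NCM wells the 13 called genes became 0 with library totals, 124 with no filter on low counts, 2 without mt-, Hba- and Hbb- genes, 308 with DESeq2 and 24 with the animal number as a replicate block, and 0 to 16 with 1 animal left out. From 0 calls, endothelial-like CM wells gave 2 with library totals, 22 with no filter and 46 with DESeq2 (0 to 106 without 1 animal). All NCM wells gave 6, 262 and 784 in that order (0 to 1). Fibroblast-like wells gave 273 with no filter and 553 with DESeq2 (0 to 21), macrophage-like wells 275 and 518 and 2 with the replicate block (0 to 26), and cardiomyocyte-like wells 104 and 114 (5 to 631). The fraction comparison moved to 841 with no filter and 1620 with DESeq2 (262 to 482; 552 with no replicate block), and its interaction with genotype to 47 and 170 (12 to 54). The class differences moved to 120 with no filter, 287 with DESeq2 and 17 when the 10 genes took part in clustering (15 to 85) for macrophage-like wells. For fibroblast-like wells they moved to 64 and 277, and to 0 with DESeq2 size factors and without Scrublet-called wells (0 to 11). The cause was not tested.

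Of 1240 values of the 10 genes under alternatives, 37 turned their sign in a test, none of them in macrophage-like wells, in the class differences or in the fraction comparison, where Fabp5 (-0.29) was at 0.15 in WT animals alone, with no test. In endothelial-like NCM wells Lpl turned to -0.67 with library totals, -0.057 with no filter, -0.00077 without mt-, Hba- and Hbb- genes and -0.017 with DESeq2 (-0.25 to 0.31 without 1 animal), and Rbp7 to 0.029 when the genes took part in clustering (-0.61 to 0.25). Thrsp ranged from -0.77 to 0.0039 without 1 animal. In endothelial-like CM wells the ranges without 1 animal were -0.00097 to 0.86 for Gpihbp1, -1.69 to 0.57 for Lpl, -0.11 to 0.75 for Depp1 and -0.43 to 0.24 for Mgll. In all NCM wells library totals gave -0.22 for Fabp4, -0.72 for Fabp5, -0.30 for Gpihbp1, -0.11 for Cd36 and -0.42 for Timp4, and the ranges without 1 animal were -0.053 to 0.35 for Fabp5, -0.95 to 0.26 for Depp1 and -0.34 to 1.90 for Timp4. In fibroblast-like wells Lpl turned to -0.17 with library totals (-0.081 to 0.74) and Fabp5 ranged from -0.14 to 1.69. In cardiomyocyte-like wells Fabp5 turned to -0.16 with the replicate block and -0.24 when the genes took part in clustering (-1.15 to 0.70), Fabp4 ranged from -0.16 to 0.77 and Thrsp from -0.64 to 0.16. In the interaction with fraction Lpl turned to 0.16 with library totals (-1.60 to 0.74), and Fabp4 to -0.034 with DESeq2 size factors and -0.028 with DESeq2 (-0.0086 to 0.11). Same-numbered animals had deviations correlated at -0.04 to 0.20 over genes, which cannot show whether such animals were handled together. The replicate block changed the call of no other gene of the 10 than is given here. Library totals shift the median of all genes by -0.70 in endothelial-like NCM wells. The limit to wells under 30% mitochondrial UMIs was not run, since an animal then kept as few as 2 wells.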
